A study of Mus musculus with 54 samples.

Results

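The prolactin (Prl) cluster on chromosome 13 and the pregnancy-specific glycoprotein (Psg) genes on chromosome 7 are families of placental genes, and their replication timing was read on each allele of F1 hybrid mouse cells. Members were all genes whose symbol is Prl or Psg followed by a digit, on mm10, within the chromosome 13 and chromosome 7 stretches that hold the families. This gave 35 of the 20665 protein-coding autosomal genes, 22 of them Prl and 13 Psg. All 22 Prl genes and 11 of the 13 Psg genes overlapped a measured window of 50 kb, in 19 and 11 windows. Psg16 and Psg27 overlapped none, and neither did Prl2c2, Prl2c3 and Prl2c5, proliferin genes that lie apart from the cluster at chr13:12790816-13191930. The pituitary prolactin gene Prl has no digit in its symbol and is no member, but it lies in the first window of Prl3d1.

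The study profiled replication timing with Repli-Seq, in which newly made DNA of cells sorted from early and late S phase is sequenced. Its 54 libraries form 27 profiles, each with a value for either parental genome in every window. A value is the logarithm of early over late signal, read here as log2, so a positive value is early replication and a negative value late. The timing of a window is the mean of its alleles, and the allelic difference is 129 minus Cas (Mus castaneus), so a positive difference means that the 129 allele was earlier.

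The embryonic stem cells (ESCs) were 129 and Cas hybrids of 5 lines with 13 profiles: the related names F121, F121-6 and F121-9, then F123, then Cas129. All 5 lines were grown in 2i, a medium with inhibitors of a pair of kinases, and F121-6 and F121-9 also on feeders, which are mitomycin-C-inactivated mouse embryonic fibroblasts. F123 is labelled male and the other 4 lines female. The crosses of the F121 lines and F123 are written with 129 first, and those of Cas129 and of the embryos with Cas first. The neural precursor cells (NPCs), 3 profiles, were made from F121-9 and Cas129 and taken at day 11 in RHB-A medium. The mouse embryonic fibroblasts (MEFs), 8 profiles, came from 4 embryos, embryos 1 and 2 labelled female and embryos 3 and 4 male. Extraembryonic endoderm (XEN) cells were 1 female line of C57B6 and Cas with 2 profiles, and V6.5 ESCs 1 male line of C57B6 and 129 with 1 profile. No labelled cell is a trophoblast cell, the cell type in which most members are known to be transcribed, and no expression was measured here.

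Replication timing is the order in which stretches of the genome are copied during S phase. Active, gene-dense chromatin tends to be copied early and silent chromatin late, and a stretch can change its time as cells differentiate. The Prl family grew by duplication in rodents and encodes hormones and cytokines of the placenta and the decidua. The Psg genes belong to the carcinoembryonic antigen family and encode proteins that trophoblast secretes into the maternal blood during pregnancy.

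The 250 bases upstream of the annotated starts of 4 members show how the families differ in sequence, and the windows of these genes are the ends and the middle of the timing patterns described next. They come from RefSeq (GRCm38.p6), 5′ to 3′ on the gene's strand. Capitals mark matches on either strand to any of 3 short motifs. The letters TATAAA are the core of a TATA box. The letters GATAAG are a motif of the GATA family of factors. The letters TGACTCA are a motif of AP-1, and the marked matches do not overlap one another. Prl3d1, the placental lactogen I gene, is shown at chr13:27093939-27094188 on the plus strand, and Prl8a8, of the middle of the cluster, at chr13:27513218-27513467 on the minus strand. Psg17, the early end of the Psg genes, is shown at chr7:18821592-18821841 and Psg18, their latest member, at chr7:18355008-18355257, both on the minus strand.
Prl3d1: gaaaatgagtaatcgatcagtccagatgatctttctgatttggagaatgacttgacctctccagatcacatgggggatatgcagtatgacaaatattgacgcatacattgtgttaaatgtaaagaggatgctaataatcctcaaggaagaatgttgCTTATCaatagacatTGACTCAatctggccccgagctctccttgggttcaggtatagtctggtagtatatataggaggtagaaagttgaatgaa
Prl8a8: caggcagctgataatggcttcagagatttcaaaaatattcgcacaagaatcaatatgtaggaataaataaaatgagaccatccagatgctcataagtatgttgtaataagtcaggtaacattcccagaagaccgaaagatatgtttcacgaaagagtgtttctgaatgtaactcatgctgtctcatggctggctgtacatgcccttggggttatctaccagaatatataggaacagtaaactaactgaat
Psg17: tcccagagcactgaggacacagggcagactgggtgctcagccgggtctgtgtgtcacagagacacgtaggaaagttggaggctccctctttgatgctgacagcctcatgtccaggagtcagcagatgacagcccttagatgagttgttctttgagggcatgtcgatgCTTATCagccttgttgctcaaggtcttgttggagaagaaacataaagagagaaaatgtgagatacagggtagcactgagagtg
Psg18: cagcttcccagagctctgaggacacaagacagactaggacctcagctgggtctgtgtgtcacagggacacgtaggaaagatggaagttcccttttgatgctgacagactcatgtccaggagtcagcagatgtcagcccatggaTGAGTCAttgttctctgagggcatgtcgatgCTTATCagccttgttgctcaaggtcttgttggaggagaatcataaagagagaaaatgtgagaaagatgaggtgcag

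Psg17 and Psg18 hold a GATA motif in the same surrounding bases, and Prl3d1 holds a GATA motif and an AP-1 motif. The GATA motif was found in 9 of the 10 Psg promoters with an entry (90%), in 4 of 19 Prl promoters (21.1%) and in 6.60% of all 27025 promoters of this length. The AP-1 motif was found in 5 Prl promoters (26.3%), 2 Psg promoters (20%) and 4.43% of all. The TATA core was found in 3 of 19 Prl promoters (15.8%), in no Psg promoter and in 3504 of all promoters. The median GC content was 39.2% for Prl, 48.8% for Psg and 52% for all promoters. Members of a family are related copies, so these matches are not independent of one another, and a match is a description of letters and not a site of binding. Psg16, Psg19, Psg22, Prl2c1, Prl2c2, Prl7b1 and Prl8a2 had no entry.

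Some features of the whole series bear on every comparison. Depth is unknown, because the table has ratios and no counts, and no counting interval is given. The autosomal column means lay between -0.67 and -0.54 in ESCs and NPCs and between -0.22 and -0.10 in MEFs and XEN cells, so a part of each difference across these sets may be scale, and the median MEF minus ESC difference over all windows was 0.38. Centring each column on its median turned that to -0.26. Alleles of 1 profile could also be offset over the genome. In F123 the column medians were -0.67 and -0.65 for 129 and -0.94 and -0.90 for Cas. In embryo 4 they were -0.21 and -0.13 for 129 and -0.03 and -0.02 for Cas. A part of the allelic differences of these samples may thus be scale. Neighbouring windows correlated at 0.974 to 0.994, so adjacent windows of a cluster are close to repeats of one measurement. A count of windows is thus not a count of independent results. Of the X tracks, 6 columns were flat. They were the Cas X of F123 (male), the 129 X of embryo 4 (male) and the 129 X of embryo 1, which is labelled female, while embryo 3, labelled male, had none. The Prl counts below are the same without embryos 1 and 3. Marker genes of the labelled cell types replicated earliest in their own cells for 6 of 9 ESC, 5 of 8 NPC, 7 of 10 MEF and 7 of 11 XEN markers. No share over all genes stands beside these counts, and the part of column scale in them was not tested. Of 27 measured genes of trophoblast function, 3 were earliest in ESCs, 3 in NPCs, 13 in MEFs and 8 in XEN cells.

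The whole Prl cluster was late in ESCs, NPCs and XEN cells, while in MEFs its early and late signals were about equal. The mean timing over its 19 windows was -3.54 ± 0.20 in ESCs (SD, n = 5 lines), -2.94 ± 0.29 in NPCs (n = 2 lines) and -0.12 ± 0.07 in MEFs (n = 4 embryos). By line it was -3.74 in F121, -3.23 in F121-6, -3.48 in F121-9, -3.67 in F123 and -3.56 in Cas129 ESCs, and -0.22, -0.10, -0.08 and -0.09 in embryos 1 to 4. No MEF profile came near an ESC profile: the lowest MEF profile was at -0.27 and the highest ESC profile at -2.22. Among all windows of their own profile, the cluster stood at the 10.3rd to 32.4th percentile in ESCs (median 13.2) and at the 47.8th to 50.3rd in MEFs (median 48.9), a ranking that does not depend on the scale of a column. NPC profiles, at the 16.6th to 24.7th percentile, lay within the range of ESC profiles. By line they did not overlap: ESC lines stood at the 10.9th to 17.6th percentile and the NPC lines at the 18.3rd and 24.7th.

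In the comparison of MEFs with ESCs, all 19 Prl windows were earlier in MEFs, by 3.41 on average. Calls needed an adjusted p under 0.05 in limma (Benjamini-Hochberg, over all 43941 autosomal windows) and a difference of at least 1. By this rule 30.3% of all windows were earlier and 13.7% later in MEFs. With each column centred on its median, 8167 windows were earlier and 12491 later, against 13311 and 6030 as deposited. All 19 Prl windows were earlier under either scaling and under quantile normalization (9033 earlier, 9811 later over all windows), with means of 2.77 and 2.89. In 19 of 19 windows every MEF profile was above every ESC profile, which held in 30.2% of all windows.

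**Figure D1:**
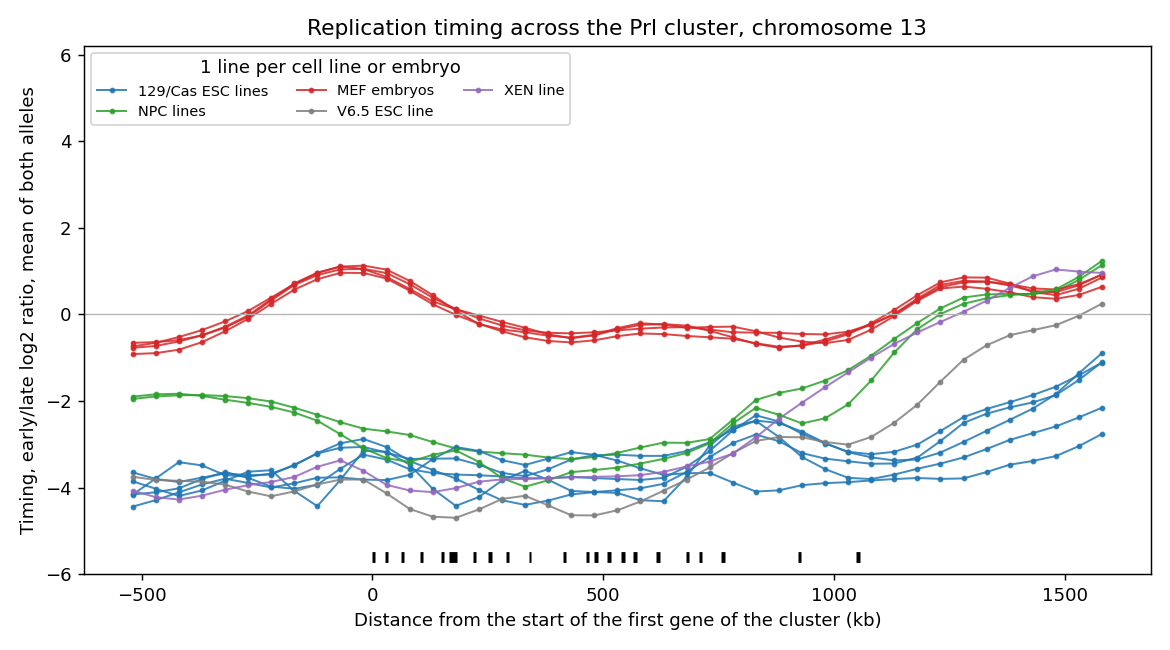
Timing (early over late log2 ratio, mean of both alleles, vertical axis) of each 50 kb window against the distance in kb from the start of the first Prl gene, with 1 line for each cell line or embryo and black ticks at the genes. The 4 MEF embryos run together near 0, the 129/Cas ESC lines, V6.5 and XEN stay far below through most of the cluster, and at the right end the XEN and NPC lines leave the ESC level at Prl4a1 and Prl5a1.

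The placental lactogens, hormones that act through the prolactin receptor, lie at the left end of the cluster and had the largest differences. Prl3d1 was at -3.16 in F121, -3.13 in F121-6, -3.30 in F121-9, -2.97 in F123 and -3.82 in Cas129 ESCs, and at 0.89, 0.96, 1.00 and 1.08 in embryos 1 to 4. In NPCs it was at -2.67 (F121-9) and -3.20 (Cas129). The embryos were all early and lay far from every ESC and NPC line. Its MEF minus ESC difference of 4.26 (SE 0.19, adjusted p = 1.03e-11 in limma) was the largest of the cluster. The gene was late in both XEN profiles (-3.79 and -3.76) and in V6.5 ESCs (-3.97). Where a gene covers several windows, its difference is their mean, and its SE and adjusted p are the largest among them.

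Prl3b1, placental lactogen II, was at -4.03, -3.33, -3.66, -3.59 and -3.34 in ESCs (F121, F121-6, F121-9, F123, Cas129 in turn) and at 0.23, 0.30, 0.39 and 0.45 in embryos 1 to 4. Its MEF minus ESC difference was 3.93 (SE 0.17, adjusted p = 8.24e-12 in limma), again with no overlap of the groups. Prl3c1, which shares its windows with Prl3b1 and Prl3d3, was at -3.54 ± 0.15 in ESCs (SD, n = 5 lines) and at 0.50 ± 0.10 in MEFs (n = 4 embryos).

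Over the left part of the cluster the timing sloped alike in all 4 embryos, while the ESC lines went different ways. MEF means were 1.05 in the first window of Prl3d1, 0.65 at Prl3d3, 0.34 at Prl3b1, -0.14 at Prl6a1 and -0.54 at Prl8a8. ESC means at these 5 windows were -3.23, -3.49, -3.59, -3.72 and -3.70, which average over unlike lines. From the first window to that of Prl3a1, F121 went from -3.15 to -4.42 and F123 from -2.88 to -3.79, while Cas129 went from -3.81 to -3.06. The windows to the right of Prl8a8 stayed between -0.63 and -0.26 in MEFs. MEF timing was thus above 0 only over the Prl3 subfamily, in the windows from Prl3d1 to Prl3a1 (0.08), and below 0 in every member window beyond it.

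The middle of the cluster holds the Prl8, Prl7 and Prl2 subfamilies, many of whose products have no known receptor. Prl8a2 encodes a prolactin-related protein of the decidua and was at -3.75 ± 0.36 in ESCs (SD, n = 5 lines) and -0.22 ± 0.10 in MEFs (n = 4 embryos). Prl7d1, proliferin-related protein, an inhibitor of vessel growth, was at -3.79 ± 0.38 and -0.30 ± 0.11. Prl8a8 was at -3.70 ± 0.43 and -0.54 ± 0.09, with a MEF minus ESC difference of 3.16 (SE 0.20, adjusted p = 7.66e-10 in limma). Prl2b1, Prl8a9, Prl8a1, Prl7c1 and Prl2a1 had ESC means from -3.78 to -3.22 and MEF means from -0.49 to -0.29. Genes that share a window, such as Prl8a9 with Prl8a1, have the same value by construction. Over all 22 genes the difference ran from 2.55 to 4.26 (median 3.44), with adjusted p-values of 3.23e-12 to 7.71e-08.

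The right end of the cluster differed from the rest in NPCs and XEN cells. Prl4a1, prolactin-like protein A, was at -3.29, -2.71, -2.76, -3.20 and -3.94 in ESCs (F121, F121-6, F121-9, F123, Cas129 in turn) and at -0.72, -0.71, -0.45 and -0.63 in embryos 1 to 4. Its difference of 2.55 (SE 0.24, adjusted p = 7.71e-08 in limma) was the smallest of the cluster. In NPCs it was at -1.71 (F121-9) and -2.52 (Cas129), between the other groups and touching neither by line, although single ESC profiles reached -2.15. Prl5a1 was at -3.79, -3.24, -3.20, -3.42 and -3.85 in ESCs of the same order, at -1.12 (F121-9) and -1.80 (Cas129) in NPCs, and at -0.33, -0.33, -0.31 and -0.47 in the embryos. The NPC lines lay nearer to MEFs than to ESCs at this gene.

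In the comparison of NPCs with ESCs, 3 of the 19 Prl windows were earlier in NPCs and none later, where 16.4% of all windows were earlier and 16.1% later by the same rule. The 3 windows are those of Prl4a1 and Prl5a1. Prl4a1 differed by 1.07 (SE 0.30, adjusted p = 0.00653 in limma), and this call was lost with a replicate block (0.76), without the F121-9 NPCs (0.66) and without the Cas129 ESCs (0.88). The windows of Prl5a1 differed by 1.80 (SE 0.25, adjusted p = 1.56e-05) and 2.28 (SE 0.22, adjusted p = 4.31e-07). The other 20 genes had differences of 0.19 to 0.65 and were not called. Prl3d1 differed by 0.34 (SE 0.23, adjusted p = 0.271) and Prl3b1 by 0.50 (SE 0.21, adjusted p = 0.0580). F121-9 and Cas129 lines are in both groups, and with the line as a block the count was again 3.

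MEFs were earlier than NPCs in 18 of the 19 Prl windows, by 2.81 on average over the cluster. Over all windows 25.7% were earlier and 7.64% later in MEFs. The share of all windows that were earlier depended on the scale, with 11285 earlier and 3358 later as deposited, 5832 and 9236 with centred columns, and 6724 and 6563 after quantile normalization. With either of these the Prl count was 16, and Prl4a1 lost its call (0.85 with centred columns, 1.48 as deposited). The remaining window, the last of Prl5a1, differed by 0.98 (SE 0.23, adjusted p = 0.00179 in limma), just under the minimum size of 1. Every MEF profile was above every NPC profile in 19 of 19 Prl windows, which held in 40.6% of all windows.

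The stretches beside the Prl cluster differed from one another. In the 500 kb to the left Hdgfl1 is the listed protein-coding gene, since Prl lies in the first member window. Mean timing there was -3.80 in ESCs, -2.07 in NPCs, 0.00 in MEFs and -3.93 in XEN cells. In MEFs the mean hides a climb toward the cluster, from -0.92, -0.74, -0.66 and -0.77 in embryos 1 to 4 at the far end to between 0.96 and 1.11 beside the first member window. In NPCs the left side had a higher mean than the cluster. The 500 kb to the right, with no listed protein-coding gene, were at -2.67 in ESCs, 0.33 in NPCs, 0.56 in MEFs and 0.36 in XEN cells. The values of Prl4a1 and Prl5a1 in NPCs and XEN cells lie on the slope toward this right side.

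The Psg genes spanned a range from late to early in every cell type, and no window was called between MEFs and ESCs. Their mean timing over 11 windows was -0.25 ± 0.29 in ESCs (SD, n = 5 lines), -1.03 ± 0.52 in NPCs (n = 2 lines) and -0.80 ± 0.31 in MEFs (n = 4 embryos). By line it was -0.46 in F121, -0.22 in F121-6, -0.27 in F121-9, -0.51 in F123 and 0.21 in Cas129 ESCs, and -0.63, -0.67, -0.64 and -1.26 in embryos 1 to 4. Single ESC and MEF profiles overlapped, with ESCs from -0.93 to 0.61 and MEFs from -1.35 to -0.52. By percentile of their own profile they stood at the 46.0th to 64.2nd in ESCs and the 35.3rd to 44.3rd in MEFs.

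**Figure D2:**
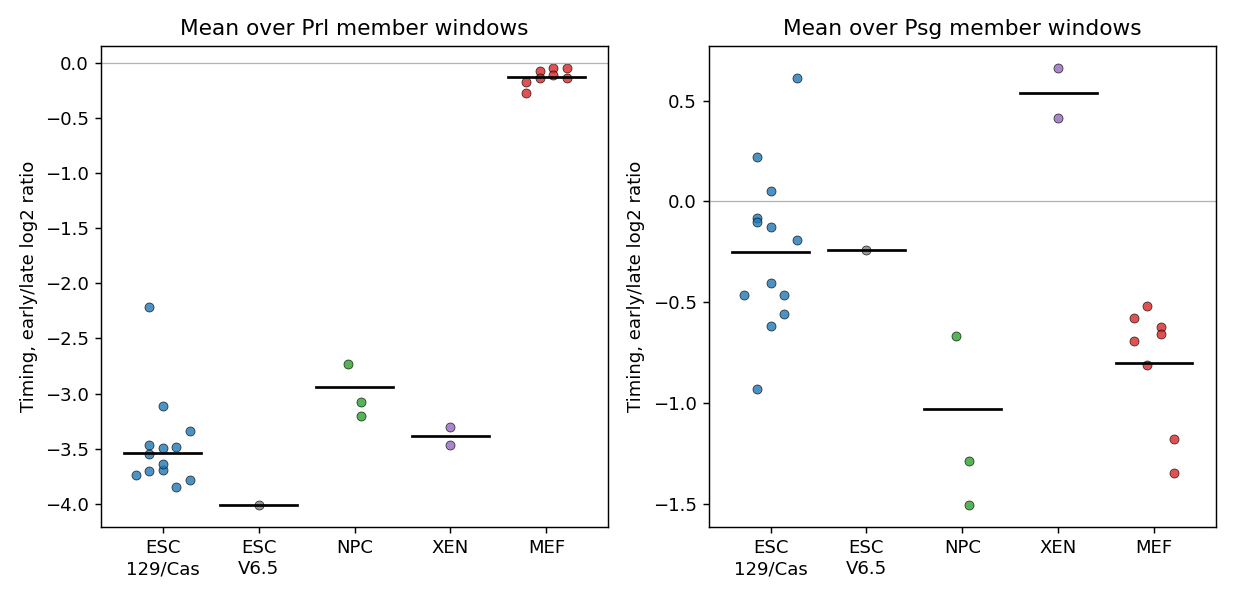
Mean timing (early over late log2 ratio) over the Prl windows (left) and the Psg windows (right), with 1 point for each profile and a bar at the mean of lines or embryos. The MEF profiles stand apart from all others in the Prl panel (-0.27 to -0.04), and in the Psg panel the 2 XEN profiles (0.41 and 0.66) are higher than all NPC and MEF profiles; the vertical axes have different ranges.

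Among the measured Psg genes, Psg18 was the latest and Psg17, at the right end, the earliest. Psg18, which is known from follicle-associated epithelium as well as from placenta, was at -2.24, -2.34, -2.33, -2.37 and -1.92 in ESCs (F121, F121-6, F121-9, F123, Cas129 in turn). In embryos 1 to 4 it was at -2.56, -2.84, -2.62 and -3.01, and in NPCs at -3.16 (F121-9) and -3.86 (Cas129). By line the ESCs were the earliest of the 3 groups and the NPCs the latest, without overlap. Psg17, whose product binds the tetraspanin CD9, is at the right end. It was at 1.78, 2.53, 2.16, 2.08 and 2.38 in ESCs of the same order, at 1.66, 1.73, 1.52 and 1.08 in the embryos and at 1.69 and 1.65 in F121-9 and Cas129 NPCs. It was early in all of these lines.

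Between them the timing climbed gene by gene in every cell type. ESC means were -1.95 at Psg28, -1.56 at Psg26, -1.18 at Psg25, -0.16 at Psg23, 0.54 at Psg20, 1.26 at Psg22 and 1.81 at Psg19. MEF means at the same 7 genes were -2.28, -1.93, -1.56, -0.74, -0.18, 0.40 and 0.97, lower than the ESC means at each. Psg21 covers the windows of Psg23 and Psg20 and was at 0.19 ± 0.34 in ESCs (SD, n = 5 lines) and -0.46 ± 0.36 in MEFs (n = 4 embryos). Psg29 stands alone at the left end and was at 0.77 ± 0.43 in ESCs and 0.51 ± 0.40 in MEFs. The stretches outside the locus were early in all cell types, with means of 2.80 (ESCs), 3.02 (NPCs), 2.80 (MEFs) and 3.18 (XEN cells) to the left and 2.77, 3.06, 3.17 and 2.51 to the right.

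**Figure D3:**
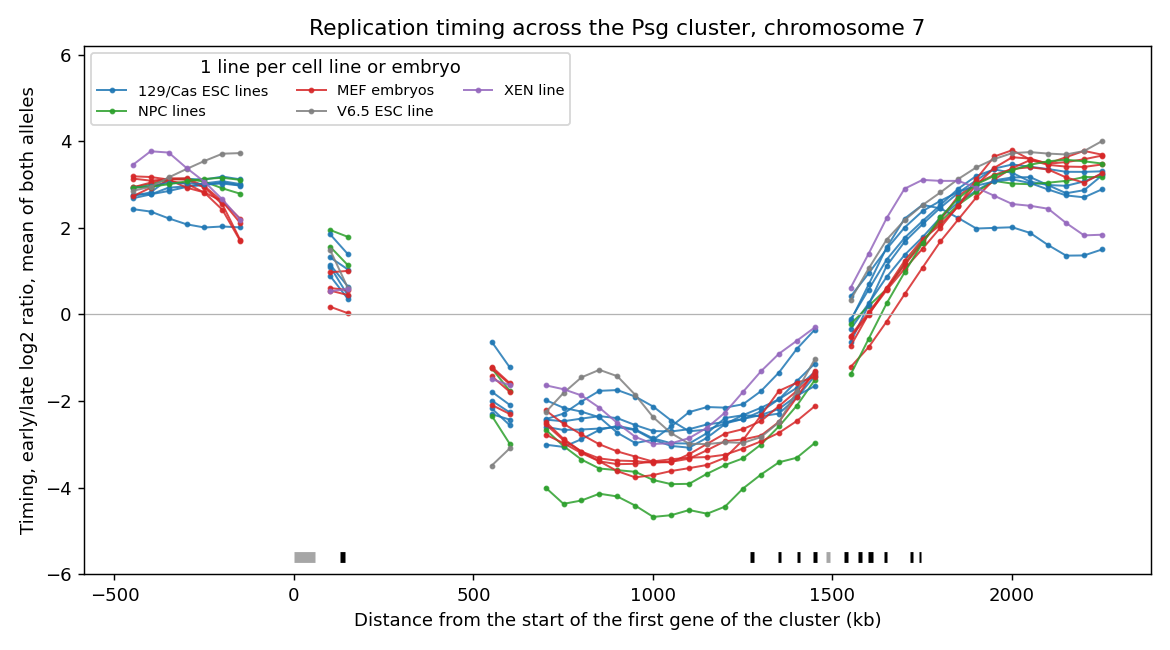
Timing (early over late log2 ratio, mean of both alleles, vertical axis) of each measured 50 kb window against the distance in kb from the start of the first Psg gene, with 1 line for each cell line or embryo. Black ticks mark genes with a window and grey ticks Psg16 and Psg27, and gaps are windows absent from the file; all lines dip from early ends to a late middle and climb through the genes from Psg18 to Psg17.

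In the comparison of MEFs with ESCs, limma called 0 of 11 Psg windows, while 7 had an unadjusted p under 0.05. The 11 differences were all negative, from -0.86 at Psg22 (SE 0.20, adjusted p = 0.00114) to -0.26 at Psg29 (adjusted p = 0.343), and below the minimum size of 1. The call depends on the scale: with centred columns 9 windows were later in MEFs (mean -1.19) and after quantile normalization 8 (mean -1.11), and with no minimum size 6. With the minimum size 13.7% of all windows were later in MEFs. Without that size the share cannot be lower, and it is not given here. In 0 of 11 windows was every MEF profile above every ESC profile, which the negative differences fixed in advance. The reverse was not counted. Psg22, the member known as the most abundant in early placenta, was at 0.86, 1.55, 1.26, 1.12 and 1.51 in ESCs (F121, F121-6, F121-9, F123, Cas129 in turn). In embryos 1 to 4 it was at 0.59, 0.61, 0.56 and -0.17, below every ESC line.

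In the comparison of NPCs with ESCs, 5 of 11 Psg windows were later in NPCs and none earlier, where 16.1% of all windows were later. These are the windows of Psg18 (-1.36, SE 0.21, adjusted p = 5.68e-05 in limma, and -1.18, SE 0.24, adjusted p = 0.000603), Psg28 (-1.05), Psg26 (-1.14) and Psg25 (-1.06, adjusted p = 0.0246). By line Psg28 was at -1.96 in F121-9 ESCs and -2.59 in F121-9 NPCs, and at -1.34 in Cas129 ESCs and -3.42 in Cas129 NPCs. The count was 2 without the Cas129 ESCs, 2 without the Cas129 NPCs (of which 1 was earlier) and 8 without the F121-9 NPCs. Psg22 (-0.84, SE 0.25, adjusted p = 0.00979) and Psg19 (-0.74, SE 0.25, adjusted p = 0.0206) were under the minimum size, and Psg29 was the member with a positive difference (0.69, SE 0.30, adjusted p = 0.0683). Between MEFs and NPCs limma called 0 of 11 Psg windows, with 5 at an unadjusted p under 0.05, and without the F121-9 NPCs it called 5. The groups stood apart, MEFs above NPCs, in 1 window (40.6% of all windows).

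XEN cells, a line of the extraembryonic endoderm, had the Prl cluster late, at the 10.8th and 12.9th percentile of its profiles, and the Psg mean near the middle, at the 56.0th and 59.0th. Since they are 1 line of another cross, a window was counted as different where both XEN profiles lay outside the range of all profiles of the other cell type and the means differed by at least 1, with no test. Against MEFs, 17 of 19 Prl windows were later in XEN cells and 0 earlier (21.4% and 23.0% of all windows), with a mean difference of -3.26. The 2 windows outside this count are those of Prl5a1. Against ESCs, 2 Prl windows were earlier (24.7% of all windows), those of Prl5a1, and none later (9.46%). Prl5a1 was at -1.13 and -1.20 in the XEN profiles and between -4.02 and -2.71 in ESC profiles.

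Against NPCs, 1 Prl window was later in XEN cells (11.9% of all windows), the window shared by Prl3c1 and Prl3b1, by 1.01 on the log2 scale. This count was 12 with centred columns and 5 after quantile normalization. Within XEN cells the window of Prl3b1 was the latest of the cluster (-4.25 and -3.96), the first window of Prl3d1 was at -3.61, and the right end was the least late.

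Psg genes were earlier in XEN cells than in MEFs in 10 of 11 windows (23.0% of all windows) and than in NPCs in 10 of 11 (29.7% of all windows), with mean differences of 1.34 and 1.57. Psg29 was the exception in both. Psg22 was at 2.00 and 2.44 in the XEN profiles, between 0.84 and 1.91 in ESC profiles, and between -0.30 and 0.67 in MEF profiles. Psg18 was at -1.65 and -1.45, against -3.11 to -2.41 in MEF profiles and -3.37 to -1.42 in ESC profiles, so that it overlapped ESCs but not MEFs. Against ESCs 0 of 11 Psg windows passed (24.7% of all windows were earlier), with a mean difference of 0.79, where the mean over all windows was 0.45. XEN and MEF columns are of like scale, while ESC and NPC columns are of another. Against NPCs, centred columns gave 7 Psg windows earlier in XEN cells and 1 later (mean 0.92), with 6825 and 10650 over all windows. Quantile normalization gave 9 and 1 (mean 1.06), with 8484 and 8325 over all windows.

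V6.5 ESCs, of another cross, had the Prl cluster at -4.01 and the Psg genes at -0.24. The Prl value lay just below the lowest 129/Cas ESC profile (-3.84) and the Psg value within their range, at the 9.0th and 54.4th percentile of the profile. The order along the clusters was also like theirs, with Psg18 at -2.90, Psg22 at 1.73 and Psg17 at 2.52.

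Averaged over the Prl cluster, the alleles had overlapping timing within each cell type. Over the cluster the 129 allele was at -3.77 to -2.08 in ESC profiles (median -3.60) and the Cas allele at -4.01 to -2.35 (median -3.56). In MEFs the 129 allele was at -0.31 to 0.13 (median -0.01) and the Cas allele at -0.27 to -0.07 (median -0.20), and in NPCs the medians were -3.05 and -3.11. In XEN profiles the C57B6 allele was at -3.54 and -3.33 and the Cas allele at -3.60 and -3.07. These cluster means overlapped between the alleles within each cell type, and the mean of each allele in MEFs lay far from that of each allele in ESCs. Alleles are paired within a profile, and these ranges do not use the pairs. By pair, the cluster mean of 129 minus Cas was -0.04, 0.32, 0.24 and 0.00 in embryos 1 to 4. In ESC lines it ran from -0.07 (F121) to 0.25 (F123), and in NPCs it was -0.05 (F121-9) and 0.07 (Cas129).

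No Prl or Psg window was called for an allelic difference (adjusted p under 0.05 and a size of at least 0.5, in limma) in ESCs, NPCs or MEFs, where 25.2%, 4.71% and 12.9% of all windows were called. At an unadjusted p under 0.05 there were 3 Prl and 8 Psg windows in ESCs, 2 and 3 in NPCs, and 0 and 4 in MEFs. The called shares are of a stricter rule, and the unadjusted share of all windows cannot lie below them. It is not given here, nor for the unadjusted counts of the other cell type comparisons, so these counts have no background beside them. The change of the allelic difference between cell types was also called in 0 windows of either cluster, for MEFs against ESCs (27.4% of all windows, 0 Prl and 1 Psg window unadjusted) and for NPCs against ESCs (16.1% of all windows, 3 and 0 unadjusted). Prl genes had mean allelic differences between -0.37 and 0.37 in ESCs, -0.67 and 0.44 in NPCs and 0.00 and 0.23 in MEFs. A miss of the threshold does not show that the alleles were alike, since single ESC lines ranged from -1.44 to 1.48 in the Prl windows.

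**Figure D4:**
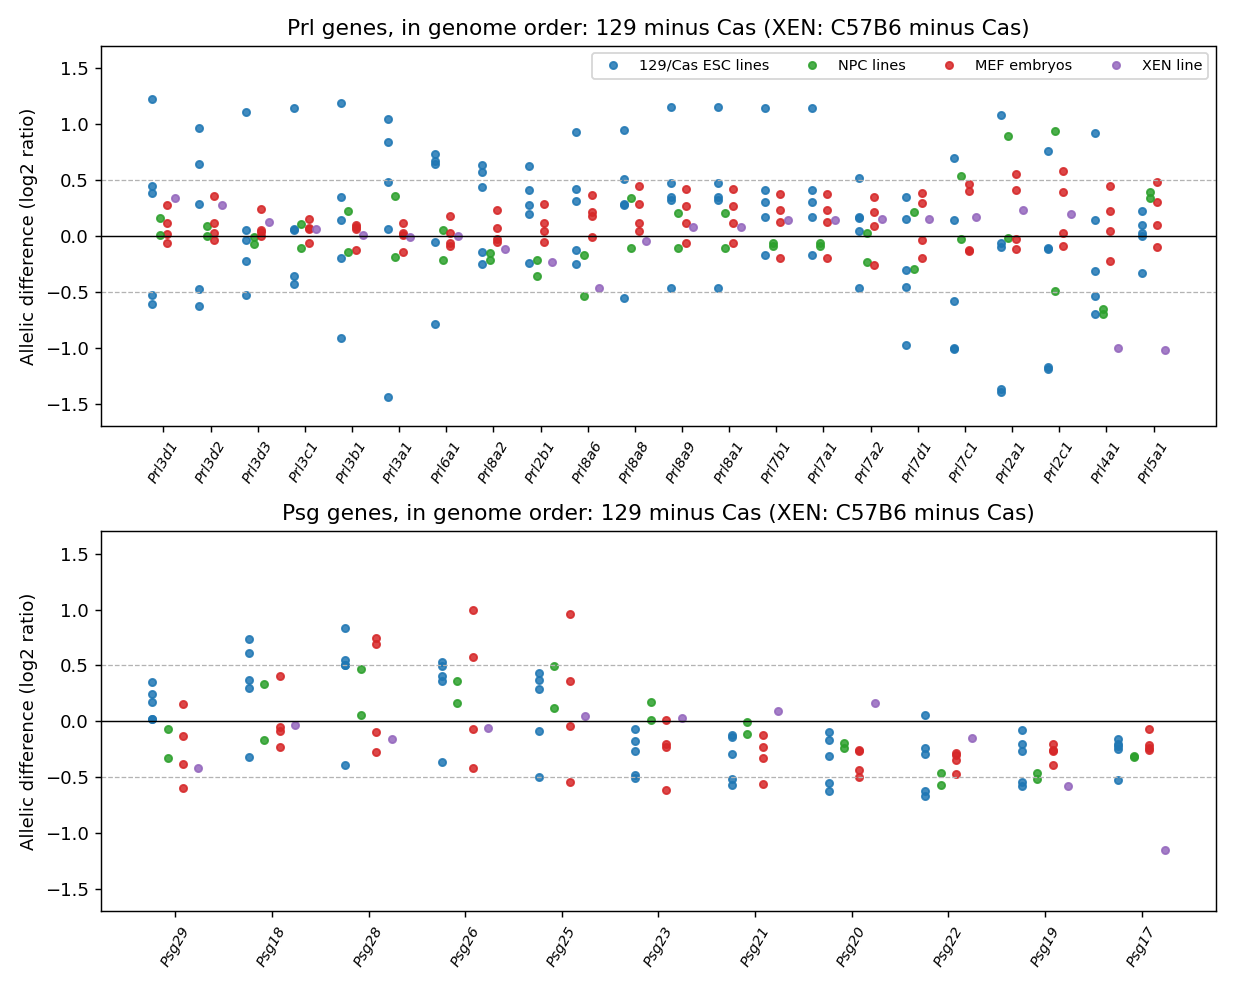
Allelic difference (log2 ratio of 129 minus that of Cas, or of C57B6 minus that of Cas for XEN) of each Prl gene (top) and Psg gene (bottom) in genome order, with 1 point for each line or embryo and dashed lines at the minimum size of 0.5. ESC lines of the Prl genes scatter to both sides of 0, the Psg genes from Psg20 to Psg17 lie below 0 in nearly all lines, and XEN lies below all other lines at Prl4a1, Prl5a1 (-1.02) and Psg17 (-1.15).

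In the Prl windows no ESC window had all 5 lines on 1 side of 0. Prl3b1 was at -0.91, -0.20, 0.35, 1.19 and 0.14 in ESCs (F121, F121-6, F121-9, F123, Cas129 in turn). Profiles of a single line repeated one another in sign only in part. In F121-6 the 4 profiles, of both media, had 1 sign in 3 of 19 windows and ranged from -1.47 to 2.50. The 4 F121-9 profiles had 1 sign in 2 windows. In lines with 2 profiles, which can share a sign more easily, it was 15 windows in F123 and 10 in Cas129 ESCs. In embryos 1 to 4, also with 2 profiles each, it was 6, 14, 14 and 8. In MEFs the spread was smaller, from -0.26 to 0.60 over embryos, with 1 window of 19 on 1 side of 0 in all 4.

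The right part of the Psg locus had a small allelic difference of the same sign in the means of most lines, with the Cas allele earlier. In ESCs the mean difference was -0.35 at Psg20 (SE 0.10, adjusted p = 0.00967 in limma), -0.35 at Psg22 (SE 0.11, adjusted p = 0.0162), -0.33 at Psg19 (SE 0.09, adjusted p = 0.0110) and -0.27 at Psg17 (SE 0.08, adjusted p = 0.0193). All lie under the minimum size of 0.5, and with no minimum size 5 Psg windows were called in ESCs and 1 in MEFs. The rule with the minimum size already called 25.2% of all windows in ESCs and 12.9% in MEFs. Without that size the share cannot be lower, and it is not given here. In MEFs the 4 genes had -0.36, -0.35, -0.28 and -0.19, with adjusted p-values of 0.0289, 0.0517, 0.0740 and 0.168. Psg17 was at -0.16, -0.20, -0.25, -0.22 and -0.52 in ESCs (F121, F121-6, F121-9, F123, Cas129 in turn), at -0.32 and -0.31 in F121-9 and Cas129 NPCs, and at -0.24, -0.21, -0.26 and -0.06 in embryos 1 to 4. These line and embryo means were all below 0, but not all of the profiles behind them were. In the 4 F121-6 profiles no Psg window of 11 kept 1 sign, with values from -1.55 to 2.13, and in the 4 F121-9 profiles 7 did. With 2 profiles each, 9 windows kept 1 sign in F123, 10 in Cas129 ESCs and 7 in Cas129 NPCs. In embryos 1 to 4, also with 2 profiles each, it was 5, 7, 10 and 10.

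The late Psg genes had the other sign in most ESC lines. Psg28 was at 0.50, 0.51, 0.55, 0.83 and -0.39 in ESCs (F121, F121-6, F121-9, F123, Cas129 in turn), with a mean of 0.40 (SE 0.18, adjusted p = 0.0951 in limma). The 4 lines whose cross is written with 129 first were above 0 and Cas129 was below, and without Cas129 limma called 2 Psg and 3 Prl windows in ESCs. With 1 line of the second cross, cross and line cannot be told apart. In NPCs the gene was at 0.06 (F121-9) and 0.47 (Cas129), so Cas129 had opposite signs in its ESCs and NPCs. In the embryos, whose cross is written with Cas first, it was at -0.10, 0.69, 0.75 and -0.27, so both signs occurred among them. An effect of the cross was not tested.

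XEN cells had an allelic difference of at least 0.5 and of 1 sign in both profiles in 3 Prl windows and 1 Psg window (20.1% of all windows). Prl4a1 was at -1.14 and -0.87 and Prl5a1 at -1.02 in each profile, so the Cas allele was the earlier one at the right end of the cluster. The 500 kb to the right of the cluster had a mean of -1.17. Psg17 was at -0.69 and -1.62. The profiles had the same sign in 4 of 19 Prl windows and 3 of 11 Psg windows. In V6.5 ESCs the C57B6 and 129 values of the Prl windows differed by at most 0.07, while those of the Psg windows differed by 0.24 to 0.95, and 74.0% of all windows differed by less than 0.1.

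Growth on feeders went with earlier timing of Prl7a2, Prl7d1 and Prl7c1 in F121-6 and F121-9 ESCs. Prl7d1 was at -3.48 and -4.73 in F121-6 in 2i and at -2.06 and -2.81 on feeders. In F121-9 it was at -4.35 and -4.43 in 2i and at -2.35 and -3.96 on feeders. Every feeder profile was above every 2i profile of its own line. With the line as a covariate, limma called 3 of 19 Prl windows earlier on feeders (adjusted p under 0.05 and at least 0.5), against 4.92% of all windows. They were Prl7a2 (1.19, SE 0.36, adjusted p = 0.0483), Prl7d1 (1.45, SE 0.36, adjusted p = 0.0185) and Prl7c1 (1.06, SE 0.28, adjusted p = 0.0270). Prl7b1 and Prl7a1, which share a window, were not called (0.70, SE 0.37, adjusted p = 0.237).

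**Figure D5:**
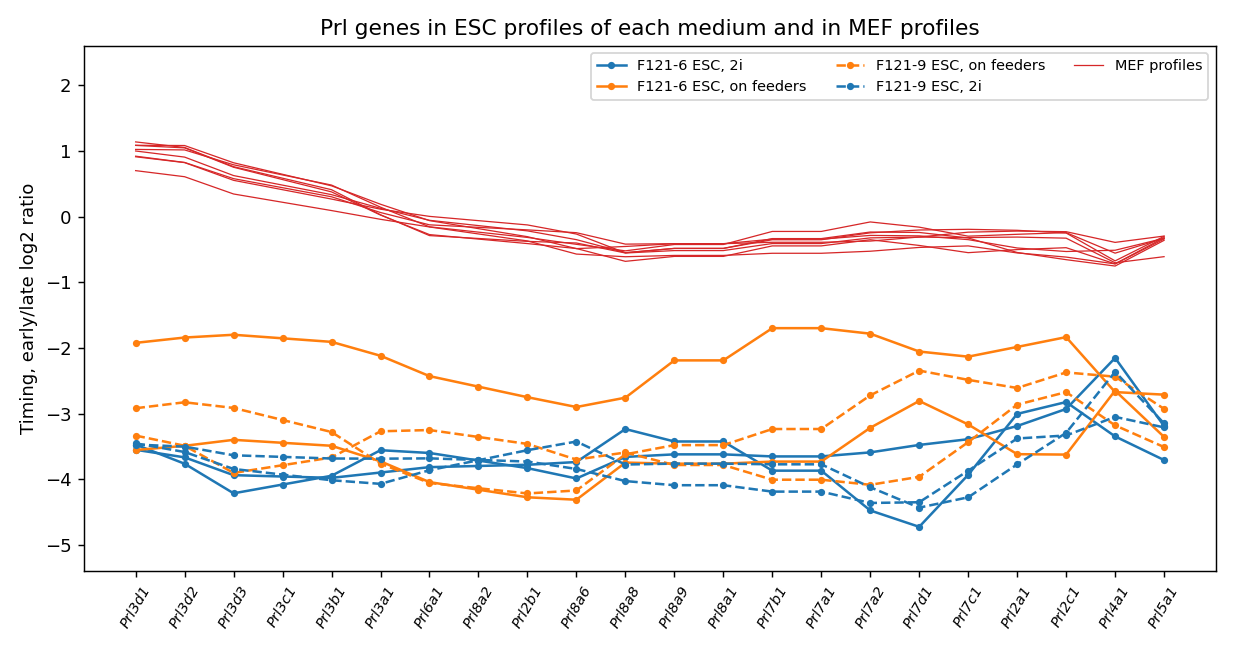
Timing (early over late log2 ratio, vertical axis) of each Prl gene in genome order for the F121-6 and F121-9 ESC profiles in 2i (blue) and on feeders (orange), and for the 8 MEF profiles (thin red lines). The feeder profiles lie above the 2i profiles of their line at Prl7a2, Prl7d1 and Prl7c1, and 1 F121-6 feeder profile lies above all other ESC profiles over most of the cluster.

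These calls rest on few profiles, and their p-values measure the spread between profiles and not between lines. The first F121-6 feeder profile had a Prl mean of -2.22, the other ESC profiles -3.84 to -3.11, and without it 0 windows were called. The count was also 0 without the first F121-9 feeder profile and without the second F121-6 profile in 2i, and 1 without any one of the other 2i profiles, but 5 without the second F121-6 feeder profile. The feeders are MEFs, in which the Prl windows were the earlier ones. Over the 10 MEF marker genes the median feeder minus 2i difference was -0.01, with 5 of 10 above 0. A part of feeder DNA in the result was not tested. In the Psg windows limma called 0 of 11, with 1 at an unadjusted p under 0.05. For the allelic difference limma called 0 windows over the whole genome, with 5104 at an unadjusted p under 0.05, 4 of them Prl and 0 Psg.

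Other placental genes did not share 1 direction between MEFs and ESCs. Of 27 measured genes of trophoblast function outside these families, 7 were earlier and 2 later in MEFs, beside 30.3% and 13.7% of all windows, with a median difference of 0.60 where the median over all windows was 0.38. Pappa2, a protease of the placenta, was earlier by 2.99 and Tfap2c, a trophoblast transcription factor, later (-1.94). The 8 placental cathepsins, protease genes on the same chromosome as the Prl cluster, had 6 members later in MEFs (13.7% of all windows) and none earlier, with a median of -1.37. Cts3 was at 1.39 in ESCs and -4.01 in MEFs, a change in the opposite direction to the Prl genes. The median timing of the 8 cathepsins was late in both, at -1.77 in ESCs and -3.14 in MEFs. The 15 Ceacam genes of chromosome 7, of the same family as the Psg genes, had 1 member later in MEFs (13.7% of all windows) and 6 later in NPCs (16.1%), with a median of -0.49 in both comparisons.

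Genes whose timing was most like the Prl cluster, by the mean absolute difference over ESC, NPC, MEF, XEN and V6.5 means, were Cblb (0.16), Gm52259 (0.27) and Vmn2r7 (0.33). The nearest to the Psg genes were Phkb (0.14), Olfr39 (0.15) and Ngly1 (0.17). None of these genes is on the chromosome of the cluster it was like.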

How the data were processed

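Repli-Seq profiles of 129/Cas ESCs, NPCs and MEFs, C57B6/Cas XEN cells and C57B6/129 ESCs were read from 1 table of 46268 windows of 50 kb, of which the 43941 autosomal windows were tested. Per the file headers, the deposited values are log ratios of early to late signal of 1 allele on mm10, read here as log2, since the base is not stated. The submitters' processing notes name Bowtie2, SAMtools and bedtools, and how reads were given to alleles is not given in the sources used here. No column was left unused and depth is unknown.

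Genes were placed by RefSeq coordinates on GRCm38.p6, the assembly of mm10, and a gene's value is the mean of its windows. The profiles of a line or embryo were averaged and 5 ESC lines, 2 NPC lines and 4 embryos were compared with limma (version 3.58.1, R version 4.3.3; two-sided tests, Benjamini-Hochberg over 43941 windows), and feeders with 2i over 8 profiles. P-values of the cell types and their alleles measure the spread between these lines and embryos. P-values of feeders against 2i measure the spread between single profiles, with the line as a covariate, and not the spread between lines. The labels do not say how the F121 lines are related. Tables and figures were made with pandas 2.3.3 and matplotlib 3.10.9. The fits were tested on simulated data. Replicate numbers did not pair profiles: over 66 pairs of groups the correlation of profiles of like number ran from -0.40 to 0.30 in timing (median -0.01). Scaling, minimum size, left-out lines, blocks, 2i only and the embryos were varied. The members, lists and tests were chosen with earlier results of these data known. Genes were named in full for their roles, with the windows of largest difference and those called in only some comparisons, and Prl8a8 and the examples of other gene lists were chosen after their values were seen. Psg16, Psg27 and Prl2c2 had no window and have no value.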

Additional observations from a re-analysis of the deposited data

Results flagged for a closer look

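In groups of 4 or 5 lines, 10 of 104 groups of member values had 1 line far from the others by Dixon's 95% critical value, which chance gives in about 1 in 20 groups. They involve 2 samples. Embryo 4 was the latest embryo at Psg20 (-0.76, the others -0.01 to 0.05), Psg22 (-0.17, the others 0.56 to 0.61), Prl5a1 (-0.47, the others -0.33 to -0.31) and over the Psg mean (-1.26, the others -0.67 to -0.63), and had the lowest allelic difference at Prl3b1 (-0.13, the others 0.06 to 0.10). Cas129 ESCs were the earliest ESC line at Psg18 (-1.92, the others -2.37 to -2.24). They had the lowest allelic difference at Psg17 (-0.52, the others -0.25 to -0.16), Psg26 (-0.36, the others 0.36 to 0.53), Psg28 (-0.39, the others 0.50 to 0.83) and over the Psg mean (-0.39, the others 0.00 to 0.16). Genes of neighbouring windows share these values, and no cause was tested.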

How the results depend on the processing

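All 19 Prl windows were earlier in MEFs than in ESCs under every alternative run. Counts of called windows moved by more than 1.5 times as follows, and the cause was not tested except where fewer samples or another minimum size make the count. With centred columns, Psg windows later in MEFs than in ESCs went from 0 to 9 and against NPCs from 0 to 1, and with quantile normalization to 8 and 1. Under these scalings, Prl windows different in XEN cells went from 2 to 6 against ESCs (centred, of which 4 were later) and from 1 to 12 (centred) or 5 (quantile) against NPCs, and Prl windows earlier on feeders from 3 to 1 (quantile). With no minimum size the Psg counts were 6 (MEFs against ESCs), 8 (NPCs against ESCs), 3 (MEFs against NPCs), 5 (ESC alleles) and 1 (MEF alleles). The shares of all windows with no minimum size are not given beside these counts. At 2 times the minimum size, NPCs against ESCs gave 1 Prl and 0 Psg windows. For XEN cells, a minimum of 0.5 gave 2 Psg windows against ESCs and 6 Prl windows against NPCs, and a minimum of 2 gave 0 Psg windows against MEFs, and 0 Prl and 3 Psg windows against NPCs. In 2i profiles alone, 3 Prl windows had an ESC allelic difference. Without embryos 1 and 3, 1 Psg window was later in MEFs than in ESCs.

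With 1 line, embryo or profile left out, Psg counts ranged from 2 to 8 for NPCs against ESCs and from 0 to 5 for MEFs against NPCs. ESC allelic counts ranged from 0 to 3 in Prl windows (3 without Cas129, 2 without F121-6, 1 without F121) and 0 to 2 in Psg windows (2 without Cas129). NPC allelic Psg counts, allelic changes from ESCs to MEFs in either cluster and to NPCs in Prl windows, and Psg feeder counts ranged from 0 to 1. Prl feeder counts ranged from 0 to 5. Prl2b1 in NPCs minus ESCs ranged from -0.0026 (without the F121-9 NPCs) to 0.57 (without the Cas129 NPCs).

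With a replicate block, the windows called between MEFs and NPCs were 19 Prl and 1 Psg, and the 2 Prl and 5 Psg windows called between NPCs and ESCs and all other counts stayed within 1.5 times. The numbers do not pair the profiles.

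Of the values of named genes, 1197 kept their direction and side of the threshold under an alternative, 39 passed it, 20 no longer did and 1 reversed. Windows are correlated, NPCs are 2 lines and XEN cells 1 line, no read counts were used, and the MEF minus ESC and NPC minus ESC comparisons share the ESC lines.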
